A study of Homo sapiens with 8 samples.

Results

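The enzymes described here belong to glycolysis, the pentose phosphate pathway and the citrate cycle. They were chosen from a list of 43 gene symbols, by taking each probe set of the array table whose annotation names exactly 1 of them. This gave 36 genes with 36 probe sets, out of 7713 named genes in the table: 18 of the 19 listed for glycolysis with its lactate and gluconeogenic branches, all 3 listed for the pentose phosphate pathway, and 15 of the 21 listed for the citrate cycle with the enzymes that feed pyruvate into it. GPI, CS, DLAT, FH, SDHA, SDHB and SUCLG2 were not analysed here. All 36 probe sets passed the filter on low values, and 34 of them lay above a common floor of 17.6 signal units on all 8 arrays. The exceptions were ALDOC, above the floor on 4 arrays, and PC, above it on 7.

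The study asked what HSD17B14, a 17-beta-hydroxysteroid dehydrogenase, changes in breast cancer cells. ZR75-1 (labelled estrogen receptor positive) and SKBR3 (labelled estrogen receptor negative) are established human breast cancer lines, and each was transfected with a plasmid that carries HSD17B14 or with the same vector lacking it. RNA was taken 48 h later and measured on 8 Affymetrix HG-Focus arrays, 2 for each of the 4 combinations of line and plasmid. All groups received a plasmid and the transfection reagent, grew in medium without phenol red and with 4% serum, and the labels describe no selection of the transfected cells. In bulk RNA a change in the number of responding cells and a change per cell cannot be told apart. The labels do not say whether duplicates were separate cultures, so the p-values rest on array-to-array spread alone, which may be technical.

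Glycolysis splits glucose into pyruvate, with an investment phase that runs from hexokinase to aldolase and a payoff phase that ends at pyruvate kinase, and lactate dehydrogenase then interconverts pyruvate and lactate. The pentose phosphate pathway branches off early, makes NADPH and ribose, and returns carbon to glycolysis through transketolase and transaldolase. Pyruvate dehydrogenase and pyruvate carboxylase carry pyruvate into the mitochondrial citrate cycle, which oxidizes acetyl groups and passes electrons to the respiratory chain, and many tumour cells are known for making lactate even when oxygen is present.

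The plasmid gene itself followed the labels. HSD17B14 signals in ZR75-1 were 107.5 and 135.3 on the plasmid arrays but 17.8 and 2.1 on the vector arrays, and in the cells labelled SKBR3 they were 650.7 and 743.6 against 2.0 and 4.2. ERBB2, the amplified gene that SKBR3 cells are known for, gave only 25.9 to 46.8 on the arrays labelled SKBR3, while the ZR75-1 arrays gave 95.9 to 226.0. The other HER2 amplicon markers overlapped between the lines. GRB7 gave 4.1 to 14.9 on the arrays labelled SKBR3 against 8.9 to 67.7 in ZR75-1, and STARD3 gave 27.5 to 36.4 against 24.8 to 30.3. The cells with the SKBR3 label are called SKBR3-labelled throughout. The 5 luminal epithelial markers lay above the floor on every array of both lines. One of them, CDH1, gave only 26.8 to 58.1 on the arrays labelled SKBR3, against 1074.7 to 1508.4 in ZR75-1. Of the leukocyte, liver and muscle markers 0 lay above the floor on all arrays of either line. The ratio of the 3' to the 5' actin control probe set, a sign of RNA quality, was 2.83 and 2.66 on the ZR75-1 HSD17B14 arrays, 2.03 and 2.02 on the ZR75-1 controls, 2.28 and 3.09 on the SKBR3-labelled HSD17B14 arrays and 3.60 and 2.996 on their controls. Bacterial spike-in controls were high on the second array of 3 groups (ZR75-1 HSD17B14, SKBR3-labelled HSD17B14 and SKBR3-labelled control) and low on the other arrays.

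**Figure D1:**
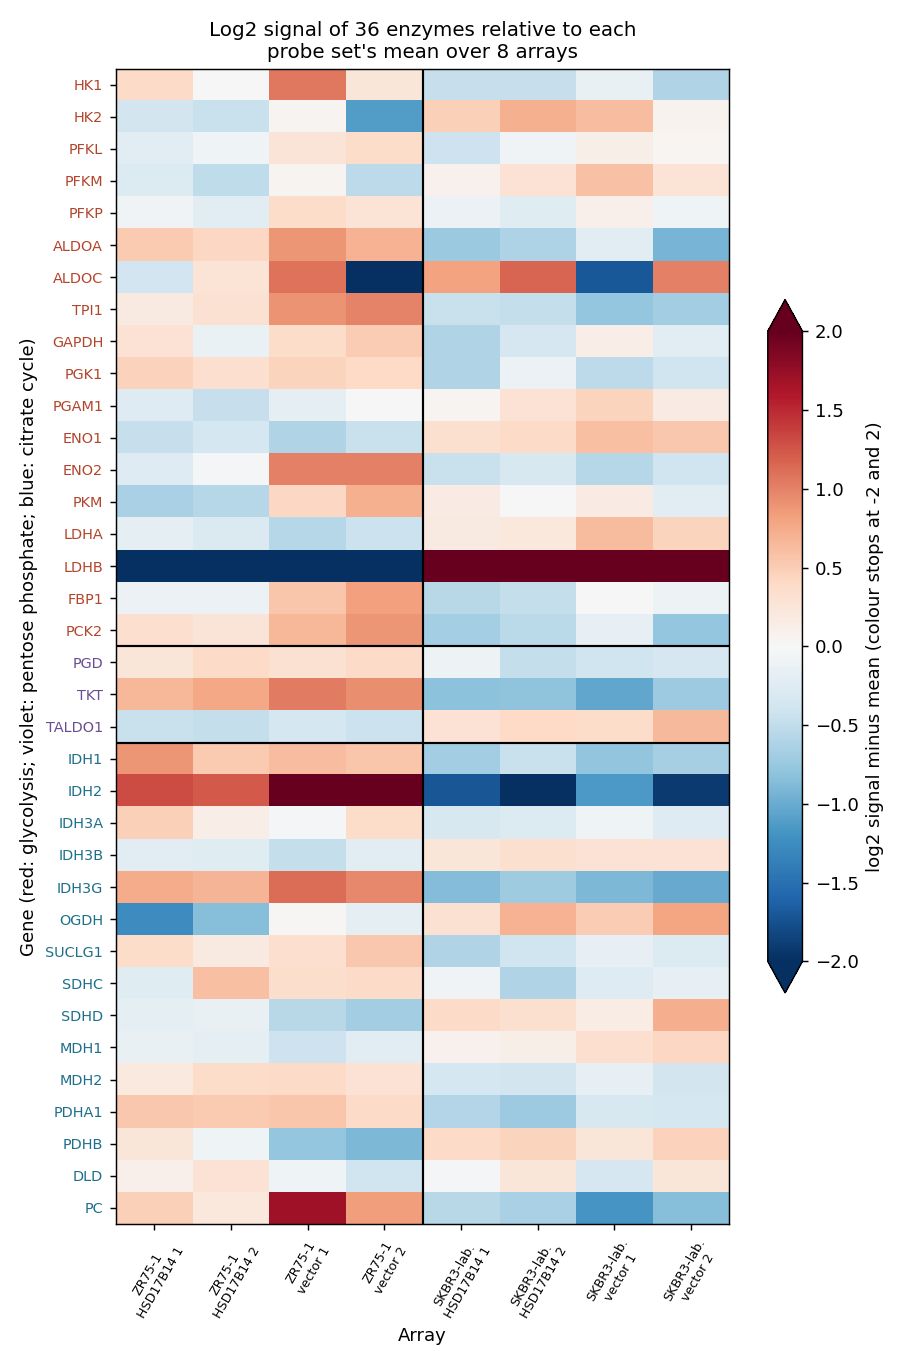
Heatmap of the 36 enzyme probe sets (rows, grouped by pathway) on the 8 arrays (columns, by line and plasmid), coloured by the log2 signal minus the mean of that probe set over the arrays. LDHB and IDH2 carry the strongest contrast between the lines, in opposite directions, and PKM, ENO2 and TPI1 are lower on the ZR75-1 HSD17B14 arrays than on the ZR75-1 controls.

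In ZR75-1 the HSD17B14 plasmid went with lower RNA of 3 glycolytic enzymes and higher RNA of 1 pyruvate dehydrogenase subunit. PKM (pyruvate kinase, the last step of the payoff phase) fell 2.26-fold, and ENO2 (an enolase, the step before it) fell 2.22-fold. TPI1 (triosephosphate isomerase, which interconverts the 3-carbon products of aldolase) fell 1.62-fold. PDHB, the beta subunit of the first enzyme of the pyruvate dehydrogenase complex, rose 1.89-fold. These 4 of 36 enzymes passed limma at an adjusted p under 0.05, beside 1.52% of all 6251 probe sets tested (0.736% higher and 0.784% lower) and 2.5% of the probe sets above the median mean signal, where 34 of the 36 enzymes lie. None of the 3 pentose phosphate enzymes passed (0 at an unadjusted p under 0.05).

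The PKM probe set (201251_at) gave signals of 364.4 and 385.6 with HSD17B14 and 767.1 and 937.8 with the vector, a log2 change of -1.18 ± 0.17 (limma SE, n = 2 arrays per group, adjusted p = 0.0109). Both HSD17B14 arrays lay far below both controls. ENO2 (201313_at) had signals of 56.3 and 65.4 against 134.9 and 134.9, a log2 change of -1.15 ± 0.25 (adjusted p = 0.0449). The 2 control arrays gave the same value for ENO2. The ENO2 groups did not overlap, as was the case for 47% of all probe sets in this comparison. TPI1 (213011_s_at) had 950.3 and 1037.2 against 1555.3 and 1668.9, a log2 change of -0.70 ± 0.13 (adjusted p = 0.0304), again with no overlap. PDHB (211023_at) ran the other way, with 387.9 and 308.2 against 191.2 and 175.5 and a log2 change of 0.92 ± 0.16 (adjusted p = 0.0273).

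The actin ratio and the GAPDH 3' to 5' ratio also separated these ZR75-1 groups, the latter at 0.896 and 0.883 with HSD17B14 against 1.08 and 1.04. With the actin ratio as a covariate the changes were -1.21 for PKM, -1.14 for ENO2, -0.63 for TPI1 and 0.93 for PDHB on the log2 scale, and 0 of the 36 passed in ZR75-1 (adjusted p = 0.344 for PKM and 0.448 for PDHB). The summed signal of the mesenchymal markers was 62.4 and 55.6 with HSD17B14 against 87.3 and 81.6, with COL1A1 alone of the 6 above the floor on all ZR75-1 arrays, and that of the leukocyte markers was 74.1 and 30.3 against 23.4 and 21.1, with 0 of 4 above it; their part in the enzyme changes was not tested. Among the 3 ZR75-1 arrays with low spike-in signal, the 4 differences were -1.22, -1.26, -0.76 and 1.08. The count of 4 became 0 without ZR75-1 HSD17B14 array 1 or control array 2, 2 without HSD17B14 array 2, and 1 without either SKBR3-labelled HSD17B14 array, which enter through the shared estimate of the spread. Higher probe sets made up 48.4% of all calls in ZR75-1 and 78.3% with arrays centred on their medians. The count was 0 with that centring and 0 with a prior variance that does not depend on the signal, and 1 with a block for the spike-in level.

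**Figure D2:**
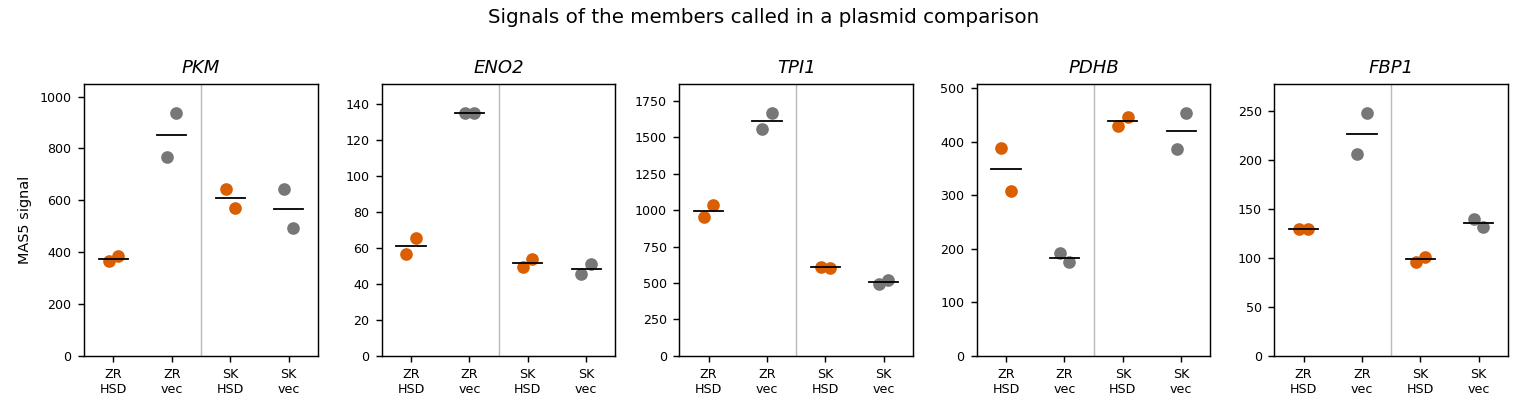
Signals of PKM, ENO2, TPI1, PDHB and FBP1 on each array (points, linear signal units from 0) in the 4 groups, with bars at the mean of the 2 arrays. PKM, ENO2 and TPI1 are lower and PDHB is higher with HSD17B14 than with the vector in ZR75-1, while FBP1 is lower with HSD17B14 in both lines.

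To show the DNA that stands before these 4 genes, the 250 bases upstream of each annotated start are printed here from RefSeq (GRCh38.p14), 5' to 3' on the strand of the gene. Capitals mark ACGTG or its reverse complement CACGT, the short core shared by E-boxes and hypoxia response elements, 2 kinds of site through which glycolytic genes are known to be regulated. The PKM window lies at chr15:72231191-72231440 on the minus strand, the ENO2 window at chr12:6914330-6914579 on the plus strand, the TPI1 windows at chr12:6867281-6867530 and chr12:6867855-6868104 on the plus strand, and the PDHB window at chr3:58433833-58434082 on the minus strand.
PKM: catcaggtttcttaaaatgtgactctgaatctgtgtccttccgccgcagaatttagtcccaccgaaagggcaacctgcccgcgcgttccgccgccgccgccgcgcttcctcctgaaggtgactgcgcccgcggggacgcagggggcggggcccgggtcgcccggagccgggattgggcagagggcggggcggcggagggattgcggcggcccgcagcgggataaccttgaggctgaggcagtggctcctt
ENO2: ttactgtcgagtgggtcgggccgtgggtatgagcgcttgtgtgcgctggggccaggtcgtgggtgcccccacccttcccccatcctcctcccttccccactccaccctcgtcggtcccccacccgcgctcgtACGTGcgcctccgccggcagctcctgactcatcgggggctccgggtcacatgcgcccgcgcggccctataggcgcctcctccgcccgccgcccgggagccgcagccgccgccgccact
TPI1 first start: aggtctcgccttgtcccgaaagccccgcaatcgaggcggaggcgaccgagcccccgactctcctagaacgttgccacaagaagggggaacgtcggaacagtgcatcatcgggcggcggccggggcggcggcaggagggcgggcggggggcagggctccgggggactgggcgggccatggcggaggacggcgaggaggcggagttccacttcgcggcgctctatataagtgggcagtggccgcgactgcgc
TPI1 second start: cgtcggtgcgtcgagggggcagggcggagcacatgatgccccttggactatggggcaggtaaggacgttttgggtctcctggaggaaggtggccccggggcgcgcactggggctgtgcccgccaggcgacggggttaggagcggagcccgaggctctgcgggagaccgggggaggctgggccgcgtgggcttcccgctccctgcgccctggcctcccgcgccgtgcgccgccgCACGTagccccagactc
PDHB: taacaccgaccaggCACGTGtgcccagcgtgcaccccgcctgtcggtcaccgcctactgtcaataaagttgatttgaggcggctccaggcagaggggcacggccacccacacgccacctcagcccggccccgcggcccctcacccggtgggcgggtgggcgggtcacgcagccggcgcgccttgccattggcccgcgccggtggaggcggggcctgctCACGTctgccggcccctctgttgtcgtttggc

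The letters were found 0 times before PKM, 1 time before ENO2, and 0 and 1 time before the TPI1 starts. PDHB, which rose, held 3 matches, 2 of which overlap as the palindrome CACGTG. Of the 35116 upstream windows of this length in the RefSeq table, 18.5% held at least 1 match, against 18 of the 59 windows of the enzymes with one (30.5%, 34 genes). By pathway these were 13 of 38 windows for glycolysis, 1 of 3 for the pentose phosphate pathway and 4 of 18 for the citrate cycle. A match of these letters is a description of the window and not a binding site. The dinucleotide CG occurred 28 times before PKM, 30 times before ENO2, 31 and 27 times before the TPI1 starts and 26 times before PDHB, against a median of 11 over all windows and 21 over the windows of the enzymes. ENO2 and TPI1 are neighbours on chromosome 12, with upstream windows 47 kb apart.

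The other glycolytic enzymes in ZR75-1 did not pass, and most of them had negative log2 differences. In the investment phase, HK1 (hexokinase, which traps glucose in the cell) had signals of 362.2 and 276.8 against 578.0 and 329.4, and HK2 had 41.6 and 39.4 against 55.5 and 24.7. Both hexokinases overlapped between the groups. The phosphofructokinase subunits, which form the committed step, had log2 differences of -0.47 ± 0.28 for PFKL, -0.16 ± 0.24 for PFKM and -0.47 ± 0.14 for PFKP. PFKP had signals of 352.2 and 318.1 against 479.3 and 446.6 with no overlap (adjusted p = 0.11). The aldolase ALDOA differed by -0.31 ± 0.20, while ALDOC, close to or under the floor, had 8.7 and 13.7 against 24.2 and 2.4.

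In the payoff phase, the GAPDH probe set tested (212581_x_at) had 8210.1 and 6144.5 against 8639.9 and 9498.7 in ZR75-1, without overlap (log2 -0.35 ± 0.21). The 3 GAPDH control probe sets on the same arrays overlapped between the groups; the one at the 3' end had 7305.9 and 5782.4 against 7269.0 and 7814.1. PGK1 (phosphoglycerate kinase) differed by -0.03 ± 0.17 and PGAM1 (phosphoglycerate mutase) by -0.26 ± 0.16. ENO1, the enolase found in most tissues, had 1381.6 and 1492.8 against 1246.8 and 1396.7, which overlapped, with a log2 difference of 0.12 ± 0.14 where ENO2 fell. LDHA, a lactate dehydrogenase subunit, had 2862.1 and 2646.0 against 2181.7 and 2401.9 (0.27 ± 0.15), and it was the 1 glycolysis probe set with higher signals and no overlap.

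The gluconeogenic enzymes were FBP1 (fructose-1,6-bisphosphatase, which opposes phosphofructokinase) and PCK2 (the mitochondrial phosphoenolpyruvate carboxykinase). FBP1 had signals of 129.7 and 129.5 against 205.7 and 248.2 in ZR75-1, a log2 difference of -0.80 ± 0.18 that just missed the threshold (adjusted p = 0.0512). PCK2 had 91.6 and 86.7 against 114.6 and 134.0 (-0.48 ± 0.27, adjusted p = 0.39). For both, the groups did not overlap.

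The citrate cycle enzymes in ZR75-1 went both ways. IDH2, the mitochondrial NADP-dependent isocitrate dehydrogenase, had 357.3 and 338.9 with HSD17B14 and 677.7 and 713.6 with the vector (log2 -0.999 ± 0.26, adjusted p = 0.0781). The size of this difference was near that of ENO2, and the groups were far apart, but IDH2 did not pass. OGDH, the first component of the 2-oxoglutarate dehydrogenase complex, had 20.5 and 27.1 against 49.6 and 43.1 (-0.97 ± 0.32, adjusted p = 0.13). PC, pyruvate carboxylase, had 49.4 and 41.0 against 114.8 and 63.2 (-0.92 ± 0.41, adjusted p = 0.26). In the opposite direction, SDHD, a membrane anchor of succinate dehydrogenase, had 211.3 and 216.0 against 163.2 and 149.1 (0.45 ± 0.19, adjusted p = 0.23). DLD, the dehydrogenase component shared by the pyruvate and 2-oxoglutarate complexes, had 461.4 and 525.0 against 407.3 and 326.8 (0.43 ± 0.20, adjusted p = 0.28). PDHA1, the partner of PDHB in the same enzyme, had 426.9 and 420.5 against 429.2 and 382.6, a log2 difference of 0.06 ± 0.14 with overlapping groups.

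The median size of the difference in ZR75-1 was 0.08 over the 3 pentose phosphate enzymes, 0.19 over the citrate cycle and 0.41 over glycolysis. TKT, transketolase, had 754.5 and 813.7 against 979.1 and 904.8, a log2 difference of -0.26 ± 0.15. TALDO1, transaldolase, had 483.5 and 473.3 against 518.6 and 490.3 (-0.08 ± 0.14), and PGD, the 6-phosphogluconate dehydrogenase that yields NADPH, had 397.3 and 438.6 against 416.6 and 438.6 (-0.03 ± 0.16). TKT and TALDO1 did not overlap between the groups, and PGD did.

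In the SKBR3-labelled cells the median size of the plasmid difference over the 36 enzymes was 0.16 on the log2 scale, against 0.29 in ZR75-1 (0.28 and 0.39 over all probe sets), and limma called 0 of the 36 (0 higher and 4 lower at an unadjusted p under 0.05), beside 0.992% of all probe sets (0.944% higher and 0.048% lower) and 1.82% of those above the median mean signal. The enzymes called in ZR75-1 had overlapping groups here except TPI1. PKM had signals of 645.4 and 571.3 with HSD17B14 and 645.1 and 491.6 with the vector, a log2 difference of 0.11 ± 0.17 with a 95% interval from -0.26 to 0.47. ENO2 had 49.1 and 53.8 against 45.4 and 51.0 (0.10 ± 0.25), and PDHB had 430.0 and 445.1 against 386.7 and 453.8 (0.06 ± 0.16, interval from -0.29 to 0.41). TPI1 had 612.1 and 600.7 against 491.5 and 517.6, a difference of 0.27 ± 0.13 (interval from -0.02 to 0.55) whose sign was opposite to that in ZR75-1.

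The 4 with an unadjusted p under 0.05 in the SKBR3-labelled cells were FBP1, LDHA, LDHB and PDHA1. FBP1 had 96.3 and 101.1 against 139.9 and 131.8 (log2 -0.46 ± 0.18, adjusted p = 0.47). LDHA had 3668.2 and 3768.1 against 5040.8 and 4399.5 (-0.34 ± 0.15, adjusted p = 0.56), and LDHB had 1994.2 and 2117.8 against 2450.1 and 2682.8 (-0.32 ± 0.13, adjusted p = 0.53). PDHA1 had 194.5 and 177.8 against 233.8 and 230.1 (-0.32 ± 0.14, adjusted p = 0.56). In each of these the groups did not overlap, as was the case for 40.1% of all probe sets in this comparison. The next citrate cycle enzymes were MDH1, cytosolic malate dehydrogenase, at -0.28 ± 0.13, and SUCLG1, a succinyl-CoA ligase subunit, at -0.28 ± 0.15. The pentose phosphate differences were 0.09 ± 0.16 for PGD, 0.07 ± 0.15 for TKT and -0.17 ± 0.14 for TALDO1.

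**Figure D3:**
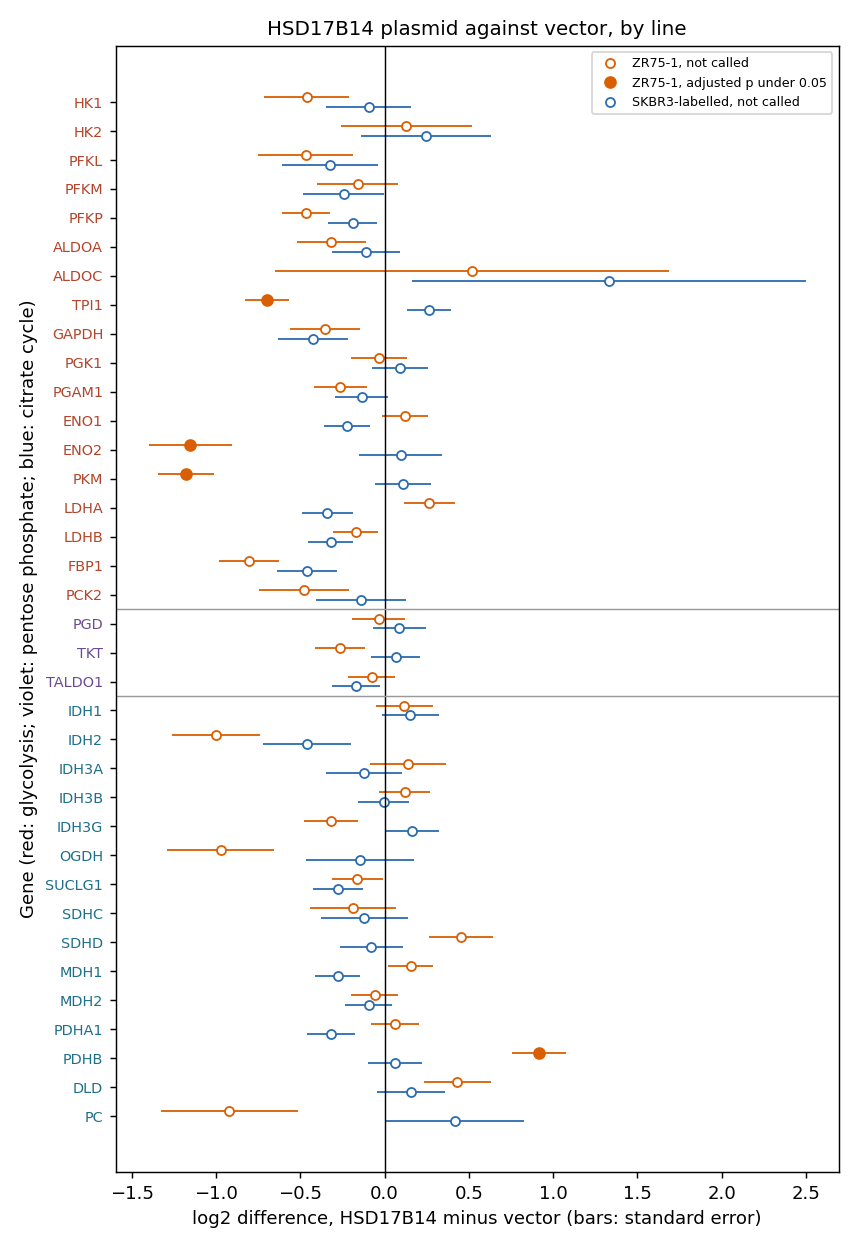
Log2 difference of HSD17B14 minus vector arrays for each of the 36 enzymes, in ZR75-1 and in the SKBR3-labelled cells, with limma standard errors (n = 2 arrays per group); 0 means no difference. PKM at -1.18 and ENO2 at -1.15 lie lowest in ZR75-1 and PDHB at 0.92 highest, while the same genes lie near 0 in the SKBR3-labelled cells; ALDOC has wide errors because its signals are near the floor.

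The plasmid effect differed between the lines for PKM and TPI1. HSD17B14 signals on the plasmid arrays also differed, at 107.5 and 135.3 in ZR75-1 and 650.7 and 743.6 in the SKBR3-labelled cells. Line and HSD17B14 level cannot be told apart here. The effect in ZR75-1 minus that in the SKBR3-labelled cells was -1.29 ± 0.24 on the log2 scale for PKM (limma interaction term, adjusted p = 0.0375) and -0.96 ± 0.18 for TPI1 (adjusted p = 0.0441). These 2 of 36, both lower, stand beside 0.624% of all probe sets (0.56% lower and 0.064% higher) and 1.15% of those above the median mean signal. For ENO2 the difference of effects was -1.25 ± 0.35 (adjusted p = 0.16) and for PDHB 0.85 ± 0.23 (adjusted p = 0.15), so neither is shown to respond differently in the lines. PC, at -1.34 ± 0.58 (adjusted p = 0.35), MDH1, at 0.43 ± 0.19 (adjusted p = 0.36), and LDHA, at 0.61 ± 0.21 (adjusted p = 0.28), did not pass. The count of 2 became 0 or 1 when any 1 array was left out, and 0 with median centring, without the filter, with values raised to the floor, with the prior variance that does not depend on the signal, with the actin covariate or with the spike-in block.

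Averaged over the lines, FBP1 was the 1 enzyme of 36 that passed, beside 1.5% of all probe sets (0.288% lower and 1.22% higher, so that 80.9% of calls were higher, and 96.1% with median centring) and 2.75% of those above the median mean signal. It fell 1.55-fold (log2 -0.63 ± 0.13, 4 arrays against 4, adjusted p = 0.0292), and its HSD17B14 arrays lay below the vector arrays in both lines. PKM, at -0.53 ± 0.12 (adjusted p = 0.0502), PDHB, at 0.49 ± 0.11 (adjusted p = 0.0625), IDH2, at -0.73 ± 0.18 (adjusted p = 0.0904), and PFKP, at -0.33 ± 0.10 (adjusted p = 0.17), did not pass. The enzymes whose HSD17B14 arrays lay below the controls with no overlap in each line were PFKL, PFKP, GAPDH, LDHB and FBP1, 5 of 36, beside 5.26% of all probe sets. All 5 belong to the glycolysis list, which includes the gluconeogenic FBP1. GAPDH is among them by 212581_x_at only, since its 3 control probe sets overlapped between the groups in ZR75-1. In both lines 0 enzymes lay above the controls, beside 4.82% of all probe sets (10.1% in either direction). Leaving out any 1 of the other 6 arrays ended the FBP1 call (adjusted p up to 0.149) and left a count of 0, while without ZR75-1 control array 1 or SKBR3-labelled control array 2 FBP1 passed and the counts were 2 and 4. FBP1 also missed the threshold with median centring (adjusted p = 0.23), the other prior variance (0.16), the actin covariate (0.068) and the spike-in block (0.059).

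The pathways can be set side by side by their medians. In ZR75-1 the median log2 difference was -0.33 over the 18 glycolysis enzymes, 14 of which were below 0, and 0.06 over the 15 citrate cycle enzymes, 7 of which were below 0. For the 3 pentose phosphate enzymes it was -0.08, which turned to 0.13 with median centring, and for all probe sets tested it was -0.04. Groups did not overlap for 11 glycolysis enzymes lower and 1 higher, for 4 citrate cycle enzymes lower and 4 higher, and for 2 pentose phosphate enzymes lower, beside 26.3% of all probe sets lower and 20.7% higher. Median centring adds the same amount to every probe set of this contrast, and gave -0.13 for glycolysis, 0.27 for the citrate cycle and 0.16 for all probe sets. With quantile normalization the glycolysis median was -0.37, and the citrate cycle median, at 0.033, did not lie above that of all probe sets, at 0.038. The citrate cycle median fell below 0 with the actin covariate (-0.015) and without ZR75-1 control array 1 (-0.013) or 2 (-0.019), so it has no settled direction.

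In the SKBR3-labelled cells the medians were -0.14 for glycolysis, 0.07 for the pentose phosphate pathway and -0.09 for the citrate cycle, against -0.01 for all probe sets. With the actin covariate the glycolysis median turned to 0.09 and the pentose phosphate median to -0.13. With 1 array left out the glycolysis median ran from -0.28 (without control 2) to -0.0098 (without control 1), the pentose phosphate median from -0.10 (without HSD17B14 array 1) to 0.12 (without control 2), and the citrate cycle median from -0.094 to -0.0023. Array by array, the median deviation of the glycolysis enzymes from their own means was -0.20 and -0.12 with HSD17B14 and 0.39 and 0.32 with the vector in ZR75-1. In the SKBR3-labelled cells it was -0.26 and -0.098 with HSD17B14 and 0.11 and -0.089 with the vector, so the groups there were barely set apart. The citrate cycle gave 0.24 and 0.21 against 0.33 and 0.37 in ZR75-1, and -0.32 and -0.36 against -0.16 and -0.26 in the SKBR3-labelled cells. All probe sets tested gave -0.0039 and -0.0029 against 0.080 and 0.034 in ZR75-1. In the SKBR3-labelled cells they gave 0.041 and 0.070 against 0.106 and 0.032.

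The lines themselves differed far more than the plasmids. Of the 36 enzymes, 31 passed between ZR75-1 and the SKBR3-labelled cells (4 arrays each, both plasmids averaged), 19 higher and 12 lower in ZR75-1. The background is high here: 49.2% of all probe sets passed (23% higher and 26.1% lower), and 64.3% of those above the median mean signal. The median size of the difference was 0.78 on the log2 scale over the enzymes and 0.73 over all probe sets. The counts were 14 of 18 for glycolysis (8 higher and 6 lower), 3 of 3 for the pentose phosphate pathway (2 and 1) and 14 of 15 for the citrate cycle (9 and 5), and PFKL, PFKP, ALDOC, PKM and DLD did not pass. With the actin covariate 20 of the 36 passed, the calls lost being HK2, PFKM, PGAM1, ENO2, FBP1, PGD, IDH3A, IDH3B, OGDH, SDHC and MDH1. Over the vector arrays alone 26 passed, with HK2, GAPDH, PGAM1, IDH3A, OGDH and SDHC lost. Over the HSD17B14 arrays alone 21 passed, with HK1, HK2, PFKM, GAPDH, ENO2, FBP1, IDH3A, SDHC, MDH1, PDHB and PC lost. With any 1 array left out 28 to 30 passed. Arrays of the lines did not overlap for 16 enzymes higher and 11 lower in ZR75-1, beside 19.8% and 22.7% of all probe sets. Signals are given below in the order HSD17B14 arrays 1 and 2, then vector arrays 1 and 2, and log2 differences are ZR75-1 minus SKBR3-labelled.

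**Figure D4:**
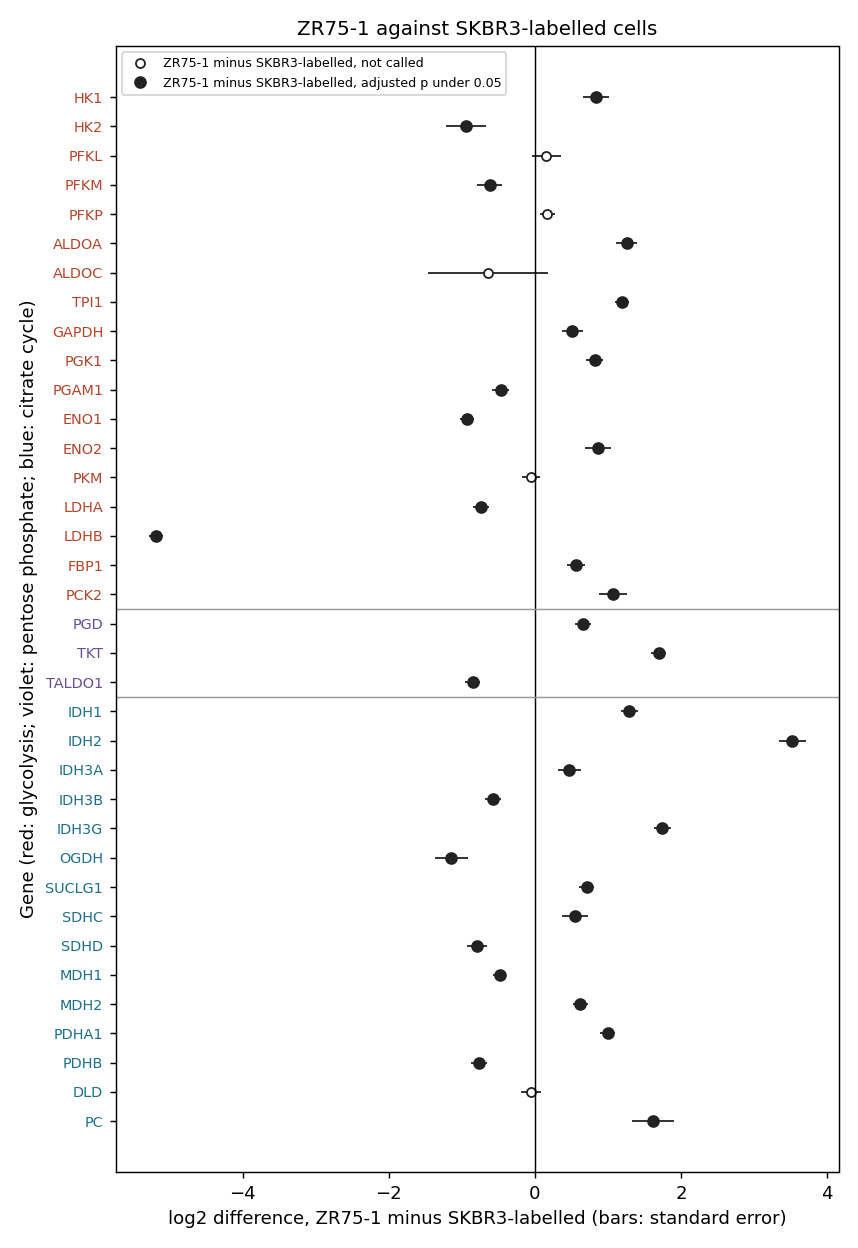
Log2 difference of ZR75-1 minus SKBR3-labelled arrays for each of the 36 enzymes by pathway, with limma standard errors (4 arrays per line). LDHB at -5.19 and IDH2 at 3.52 stand far outside the others, which lie between -1.14 and 1.75.

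The largest difference among these enzymes was in lactate dehydrogenase, a tetramer of LDHA and LDHB subunits. LDHB (201030_x_at) had signals of 58.0, 60.4, 66.0 and 67.3 in ZR75-1 and 1994.2, 2117.8, 2450.1 and 2682.8 in the SKBR3-labelled cells. It was 36.5-fold lower in ZR75-1 (log2 -5.19 ± 0.10, adjusted p = 2.46e-11), and by the absolute moderated t of limma it ranked 1 of 6251 probe sets. By size of the difference it ranked 68. LDHA (200650_s_at) was also lower in ZR75-1, by a much smaller amount, with 2862.1, 2646.0, 2181.7 and 2401.9 against 3668.2, 3768.1, 5040.8 and 4399.5 (-0.74 ± 0.11, 1.67-fold, adjusted p = 1.26e-04). The subunits therefore shifted unequally, and the within-array ratio of LDHA to LDHB differed 21.9-fold between the lines.

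The upstream windows of the subunit genes are shown because this pair carries the largest unequal shift, again from RefSeq (GRCh38.p14) with ACGTG or CACGT in capitals. The first LDHA start has its window at chr11:18394313-18394562 on the plus strand and LDHB at chr12:21657843-21658092 on the minus strand.
LDHA first start: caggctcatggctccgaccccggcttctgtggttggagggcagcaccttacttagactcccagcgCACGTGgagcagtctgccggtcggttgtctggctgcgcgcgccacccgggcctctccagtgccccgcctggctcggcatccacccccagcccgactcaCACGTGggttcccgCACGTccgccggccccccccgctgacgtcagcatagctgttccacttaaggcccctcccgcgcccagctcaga
LDHB: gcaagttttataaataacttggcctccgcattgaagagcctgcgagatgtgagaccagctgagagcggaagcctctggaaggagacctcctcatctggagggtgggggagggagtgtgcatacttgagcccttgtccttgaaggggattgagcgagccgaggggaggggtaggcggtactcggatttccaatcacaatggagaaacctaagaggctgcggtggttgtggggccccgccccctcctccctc

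The LDHA window held 5 matches, among them 2 palindromes CACGTG that count on both strands, and the LDHB window held 0. The window of the second LDHA start held 0 matches. CG occurred 22 times before the first LDHA start and 9 times before LDHB, which is under the median of 11 for all windows. No methylation or binding was measured in these cells.

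In the investment phase, the hexokinases went opposite ways between the lines. HK1 was higher in ZR75-1, with 362.2, 276.8, 578.0 and 329.4 against 202.0, 201.8, 251.9 and 184.1 (log2 0.83 ± 0.18, adjusted p = 0.0021). HK2, the hexokinase often raised in tumours, was lower, with 41.6, 39.4, 55.5 and 24.7 against 74.3, 87.8, 82.4 and 56.4 (-0.94 ± 0.27, adjusted p = 0.0137). HK1 was not called over the HSD17B14 arrays alone, and HK2 was called in neither plasmid arm alone. The HK2 call was lost without SKBR3-labelled HSD17B14 array 2 or control array 1, and its difference ran from -1.23 to -0.65 with 1 array left out. Of the phosphofructokinase subunits PFKM, the muscle form, was lower in ZR75-1, with 93.1, 78.8, 116.8 and 78.3 against 118.6, 137.5, 169.0 and 135.1 (-0.62 ± 0.17, adjusted p = 0.0097). PFKL (0.16 ± 0.20) and PFKP (0.17 ± 0.10) did not pass. ALDOA, the aldolase of muscle and most tumours, was 2.40-fold higher, with 2208.5, 2053.6, 2821.9 and 2487.0 against 914.6, 995.3, 1318.8 and 805.4 (1.26 ± 0.14, adjusted p = 1.85e-05). Its probe set, like those of LDHB and GAPDH, has the suffix x_at, which marks possible cross-hybridization to similar sequences.

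Further down the pathway, TPI1 was 2.29-fold higher in ZR75-1 (log2 1.19 ± 0.09, adjusted p = 7.40e-07), with signals given above. The TPI1 difference was 1.68 over the vector arrays alone and 0.71 over the HSD17B14 arrays alone, called in both. PGK1 had 1858.2, 1708.4, 1849.4 and 1792.9 against 892.5, 1245.8, 948.4 and 1030.5 (0.82 ± 0.12, adjusted p = 1.15e-04). GAPDH was higher by 0.51 ± 0.15 (adjusted p = 0.0121), but its arrays overlapped, since SKBR3-labelled control 1 reached 7382.7 and ZR75-1 HSD17B14 array 2 gave 6144.5. The lines did not overlap for its control probe sets at the 3' end (5782.4 to 7814.1 against 3776 to 5751.1) and the 5' end (6550.5 to 8150.4 against 4650.9 to 6303.6). For its middle control probe set they did. The GAPDH call was lost without ZR75-1 HSD17B14 array 1, SKBR3-labelled HSD17B14 array 1 or SKBR3-labelled control array 2 (adjusted p up to 0.0707), and in each plasmid arm alone. PGAM1 was lower, with 966.8, 840.9, 1012.9 and 1155.2 against 1200.5, 1416.5, 1583.6 and 1297.2 (-0.47 ± 0.11, adjusted p = 0.0044). The enolases split: ENO1 was lower in ZR75-1, with 1381.6, 1492.8, 1246.8 and 1396.7 against 2373.5, 2471.3, 2890.1 and 2762.0 (-0.93 ± 0.10, adjusted p = 1.00e-05), and ENO2, which is known from neurons, was higher (0.86 ± 0.17, adjusted p = 0.0014). The ENO2 difference was 1.49 over the vector arrays alone and 0.24, not called, over the HSD17B14 arrays alone. PKM had nearly equal means (-0.05 ± 0.12), although its vector arrays alone stood at 767.1 and 937.8 in ZR75-1 and 645.1 and 491.6 in the SKBR3-labelled cells.

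Both gluconeogenic enzymes were higher in ZR75-1. PCK2 had 91.6, 86.7, 114.6 and 134.0 against 45.4, 49.9, 64.9 and 42.5 (log2 1.07 ± 0.19, adjusted p = 5.61e-04) with no overlap. FBP1 was higher by 0.56 ± 0.13 (adjusted p = 0.0028), with overlapping arrays because the SKBR3-labelled controls, at 139.9 and 131.8, lay just above the ZR75-1 HSD17B14 arrays, at 129.7 and 129.5.

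In the pentose phosphate pathway, the enzymes of the non-oxidative branch went opposite ways. TKT was 3.24-fold higher in ZR75-1, with 754.5, 813.7, 979.1 and 904.8 against 268.7, 273.2, 232.0 and 288.7 (log2 1.70 ± 0.10, adjusted p = 1.22e-07). TALDO1 was 1.81-fold lower, with 483.5, 473.3, 518.6 and 490.3 against 804.7, 868.7, 855.7 and 1034.0 (-0.85 ± 0.10, adjusted p = 2.16e-05). PGD, in the oxidative branch, had 397.3, 438.6, 416.6 and 438.6 against 313.9, 242.2, 254.0 and 265.3 (0.66 ± 0.11, adjusted p = 4.18e-04). None of the 3 overlapped between the lines.

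In the citrate cycle the differences were largest for IDH2 and IDH3G, both subunits of isocitrate dehydrogenases. IDH2 (210046_s_at) had 357.3, 338.9, 677.7 and 713.6 in ZR75-1 and 44.4, 29.9, 65.3 and 38.5 in the SKBR3-labelled cells, 11.5-fold higher in ZR75-1 (log2 3.52 ± 0.18, adjusted p = 3.33e-08). IDH1, its cytosolic counterpart, had 463.7, 362.3, 385.9 and 370.2 against 155.4, 183.9, 145.5 and 159.1 (1.30 ± 0.12, 2.45-fold, adjusted p = 3.24e-06). Both NADP-dependent enzymes were thus higher in ZR75-1 on every array. The NAD-dependent enzyme is built from IDH3A, IDH3B and IDH3G, and its subunits did not move together. IDH3G, a regulatory subunit, had 315.0, 300.8, 405.8 and 363.5 against 102.5, 114.5, 101.0 and 93 (1.75 ± 0.11, 3.36-fold higher, adjusted p = 2.02e-07). IDH3B was lower, with 213.4, 207.5, 177.5 and 211.1 against 291.6, 309.3, 300.8 and 301.9 (-0.58 ± 0.11, adjusted p = 8.20e-04). The catalytic IDH3A had 139.6, 109.9, 97.9 and 129.3 against 80.1, 83.0, 94.1 and 83.4 (0.47 ± 0.16, adjusted p = 0.0279), a difference that passed in only 9 of 20 alternative settings and was lost without any 1 of 5 arrays (ZR75-1 HSD17B14 array 1, ZR75-1 control 2, both SKBR3-labelled HSD17B14 arrays and SKBR3-labelled control 2).

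At the entry of pyruvate, PDHA1 and PDHB, which form 1 enzyme, differed in opposite directions. PDHA1 was 1.995-fold higher in ZR75-1, with 426.9, 420.5, 429.2 and 382.6 against 194.5, 177.8, 233.8 and 230.1 (log2 0.996 ± 0.10, adjusted p = 7.12e-06). PDHB was 1.70-fold lower (-0.77 ± 0.11, adjusted p = 1.46e-04), and its overlap came from ZR75-1 HSD17B14 array 1, at 387.9, above the lowest SKBR3-labelled array, at 386.7. The PDHB difference was -1.19 over the vector arrays and -0.34, not called, over the HSD17B14 arrays. DLD had nearly equal means (-0.05 ± 0.14). PC was 3.06-fold higher in ZR75-1 (1.61 ± 0.29, adjusted p = 6.14e-04), with SKBR3-labelled signals of 24.2, 22.6, 15.6 and 19.6 that lie near or under the floor. The PC difference was 2.28 over the vector arrays and 0.87, not called, over the HSD17B14 arrays.

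In the later steps of the cycle, OGDH was 2.21-fold lower in ZR75-1, with 20.5, 27.1, 49.6 and 43.1 against 60.8, 79.0, 69.4 and 84.6 (log2 -1.14 ± 0.23, adjusted p = 0.0012). SUCLG1 was higher, with 504.7, 446.2, 492.9 and 570.8 against 260.1, 299.4, 351.3 and 325.6 (0.71 ± 0.11, adjusted p = 1.63e-04). Neither overlapped. The succinate dehydrogenase anchors split, with SDHD lower in ZR75-1, at 211.3, 216.0, 163.2 and 149.1 against 314.4, 301.7, 267.3 and 396.3 (-0.79 ± 0.13, adjusted p = 3.69e-04). SDHC was higher by 0.55 ± 0.18 (adjusted p = 0.0263), with overlap, since 1 ZR75-1 array gave 171.6 and SKBR3-labelled arrays ran from 133.3 to 194.2, and it passed in 8 of 20 alternative settings. The SDHC call held with 1 array left out only when that was HSD17B14 array 1 of either line, and its difference ran from 0.34 to 0.76. The malate dehydrogenases also split by compartment. Cytosolic MDH1 was lower in ZR75-1, with 1270.2, 1238.3, 1058.5 and 1196.1 against 1494.3, 1522.9, 1781.0 and 1875.2 (-0.48 ± 0.09, adjusted p = 0.0012), and mitochondrial MDH2 was higher, with 617.1, 693.5, 703.9 and 659.9 against 421.0, 417.6, 481.3 and 416.0 (0.62 ± 0.10, adjusted p = 2.41e-04).

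The unequal shift of paired enzymes was described by the ratio of 2 probe sets on the same array, which any scaling of an array leaves as it is. The pairs were chosen with the line differences known, so no test is given, and a ratio does not say which of the 2 moved. The direction of a ratio depends only on which enzyme of the pair is named first. Between the lines the ratio differed 5.86-fold for TKT to TALDO1, 5.00-fold for IDH3G to IDH3B, 4.69-fold for IDH2 to IDH1 and 3.46-fold for ENO2 to ENO1, each higher in ZR75-1. It differed 3.42-fold for HK1 to HK2, 3.39-fold for PDHA1 to PDHB, 2.54-fold for SDHC to SDHD, 2.15-fold for MDH2 to MDH1, 2.07-fold for IDH3A to IDH3B and 1.71-fold for PFKL to PFKM, also each higher in ZR75-1. In none of the 11 pairs did the ratios of the 4 ZR75-1 arrays overlap those of the 4 SKBR3-labelled arrays. Of single probe sets 42.5% did not overlap, which is no background for ratios of pairs chosen with the line differences known. The IDH2 to IDH1 log2 ratio had the widest spread in the SKBR3-labelled cells, with an SD of 0.61 over 4 arrays, and ENO1 to ENO2 the widest in ZR75-1, at 0.74.

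**Figure D5:**
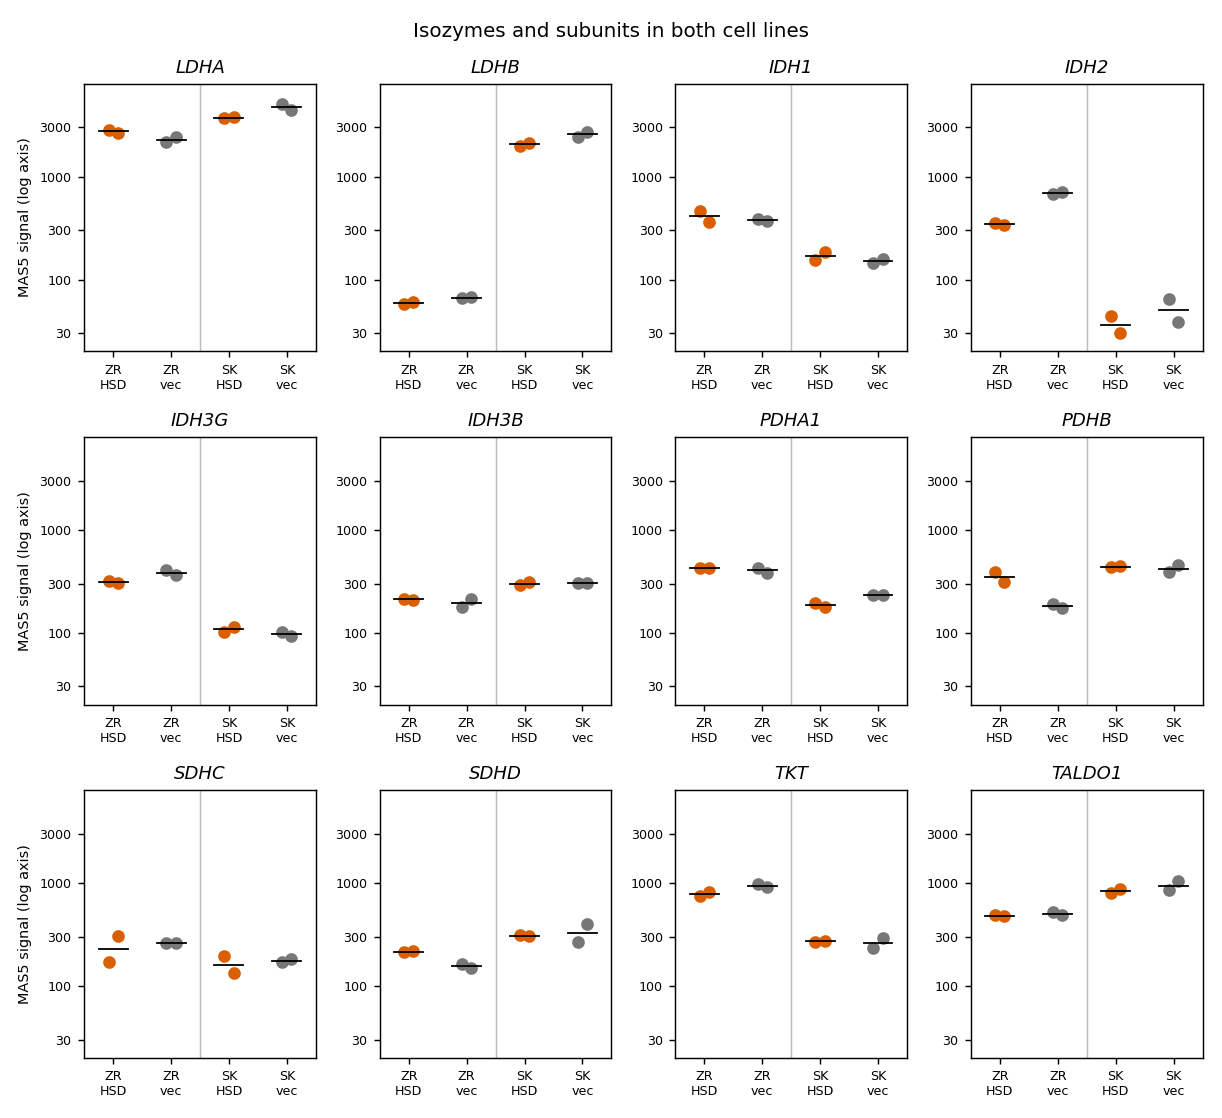
Signals of 6 pairs of related enzymes on each array (points, log-scaled signal axis) in the 4 groups, with bars at the geometric mean of the 2 arrays. Within LDHA and LDHB only LDHB is far apart between the lines, and TKT against TALDO1 and PDHA1 against PDHB differ in opposite directions; signals of different probe sets are not comparable in level.

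Markers of cell state differed between the lines as well. The summed signal of the 5 luminal epithelial markers lay between 15354.9 and 18390.3 in ZR75-1 and between 4272.0 and 5902.4 in the SKBR3-labelled cells. Each of these 5 and of the 6 hormone receptor positive luminal markers on the array was lower in the SKBR3-labelled cells without overlap, beside 19.8% of all probe sets. For PGR this rests on 2.5 against 2.6, values under the floor that have no firm order. ESR1 gave 194.5 to 341.6 in ZR75-1 and 14.9 to 24.6 in the SKBR3-labelled cells, while PGR lay mostly under the floor in both. Of the 6 mesenchymal markers on the array, summed at 55.6 to 87.3 against 3669.8 to 5411.5, only VIM (vimentin) was above the floor on all SKBR3-labelled arrays, where it made up most of the sum at 3646.2 to 5325.8 against 0.4 to 25.7 in ZR75-1. COL1A1 went the other way, at 21.8 to 50.4 in ZR75-1 and 3.4 to 14.4 in the SKBR3-labelled cells. The part of these markers in the enzyme differences was not tested. Each receptor status is represented by 1 line, so line and receptor status cannot be told apart.

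Of 66 further genes of these pathways and their direct regulators, 45 were measured and 32 tested. limma called 0 of the 32 for the plasmid in either line (in ZR75-1 3 higher and 1 lower at an unadjusted p under 0.05, and in the SKBR3-labelled cells 1 and 2), beside the 1.52% and 0.992% given above. Between the lines 18 of 32 passed, 8 higher and 10 lower in ZR75-1, beside 49.2% of all probe sets. Higher were the regulators of phosphofructokinase PFKFB3 (log2 1.54) and TIGAR (0.91), the ribose-phosphate kinase PRPS2 (0.39), the malic enzymes ME1 (1.02) and ME2 (0.52), the aminotransferase GOT2 (0.70), the dicarboxylate carrier SLC25A10 (1.49, with 1 of 4 SKBR3-labelled arrays under the floor) and the succinyl-CoA ligase subunit SUCLA2 (0.79). Lower were PGM1, phosphoglucomutase (-1.48), SLC2A1, a glucose transporter (-0.62), PGLS, the lactonase of the oxidative pentose branch (-1.36), GLUD1 (-0.85) and GOT1 (-0.52). Also lower, with ZR75-1 arrays partly under the floor so that no size is given, were the cytosolic aconitase ACO1 (under it on 2 of 4 arrays), NNT, the transhydrogenase of the inner mitochondrial membrane (2 of 4), and PDP1, the phosphatase that activates pyruvate dehydrogenase (3 of 4). ME3, the mitochondrial NADP-dependent malic enzyme, was under the floor on all ZR75-1 arrays and at least 5.28-fold lower there. SLC2A3, a glucose transporter, was under the floor on all ZR75-1 arrays and gave 36.5, 25.5, 3.9 and 24.6 in the SKBR3-labelled cells, for which no fold is given. Among the malic enzymes, ME1 and ME2 were thus higher and ME3 lower in ZR75-1.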

How the data were processed

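Total RNA of 8 samples (4 groups of 2) was labelled and hybridized to HG-Focus arrays. The submitters' processing notes name MAS5, without a version, for the deposited signal intensity of each probe set, which is on a linear scale. The trimmed mean of every array is 100.1. Probe sets were named through the platform annotation, and the 47 control probe sets stayed out of the tests. Values under 1 were raised to 1, log2 was taken, and the 6251 of 8793 probe sets above the array's 40th percentile on at least 2 arrays were tested. The 4 group means were fitted by limma 3.58.1 (R 4.3.3) with a mean-dependent prior, which gave 4 residual and 7.39 prior degrees of freedom, and was tested on simulated data. Calls needed a Benjamini-Hochberg adjusted p under 0.05 over all probe sets tested, for 5 contrasts. The common floor is the highest 40th percentile of the arrays. The number of arrays limits the precision.

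The enzymes and gene lists were chosen with earlier results of these data known, and the enzyme pairs, the ACGTG search and the windows printed were chosen after the values were seen. Enzymes past the threshold in any contrast, and up to 3 per pathway and contrast with the largest absolute moderated t, were named with their values. Alternatives were quantile normalization, median centring, other filters and low-value settings, another prior, a replicate block, the actin ratio, the spike-in level, fewer arrays in the fit and leaving out each array. Python 3.11.15 and matplotlib 3.10.9 drew the figures.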

Additional observations from a re-analysis of the deposited data

Results flagged for a closer look

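Among these enzymes, 2 had a plasmid effect that differed between the lines by the interaction term of limma. For PKM the log2 effect in ZR75-1 minus that in the SKBR3-labelled cells was -1.29 (adjusted p = 0.0375), and for TPI1 it was -0.96 (adjusted p = 0.0441). Both effects were negative in ZR75-1 (-1.18 and -0.70) and positive but not called in the SKBR3-labelled cells (0.11 and 0.27). With 1 array left out the difference of effects ran from -1.48 to -1.09 for PKM and from -1.03 to -0.90 for TPI1. Neither passed with median centring or with the actin covariate. HSD17B14 signals on the plasmid arrays were lower in ZR75-1, so line and HSD17B14 level cannot be told apart.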

How the results depend on the processing

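The number of enzymes called for the plasmid in ZR75-1, 4 as reported, was 0 with median centring, 0 with a prior not dependent on the mean, 0 with the actin covariate, 1 with the spike-in block, and 0 to 6 with 1 array left out. In the SKBR3-labelled cells it was 0 in every setting run. For the averaged effect, 1 as reported, it was 0 with median centring, 2 with the 60th percentile filter, 4 with log2 of the value plus 32, 0 with the other prior, 0 with the actin covariate, 0 with the spike-in block and 0 to 4 with 1 array left out. For the difference of effects, 2 as reported, it was 0 with median centring, without the filter, with the common floor, with the other prior, with the actin covariate and with the spike-in block, and 0 to 1 with 1 array left out. For the line difference, 31 as reported, it was 20 with the actin covariate, 26 over vector arrays alone, 21 over HSD17B14 arrays alone and 28 to 30 with 1 array left out. The causes were not tested, except that fewer arrays leave fewer degrees of freedom.

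Arrays with the same replicate number shared no deviation over all probe sets tested (correlation -0.04 in each line). In the SKBR3-labelled cells the spike-in level did follow the replicate number, so the correlation cannot show how the arrays were handled. With the replicate block the counts were 3 in ZR75-1, 3 for the averaged effect, 2 for the difference and 31 for the line.

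Of the 4 enzymes called in ZR75-1, PKM passed in 14 of 19 alternatives (adjusted p from 0.0011 to 0.34), PDHB in 11 (0.0080 to 0.45), TPI1 in 10 (0.0122 to 0.51) and ENO2 in 6 (0.0105 to 0.53), and each kept its direction in all 19. Of the 31 line differences, 16 passed in all alternatives and 0 reversed.

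Among the enzymes followed singly in each contrast (those called and up to 3 per pathway), the reversals below were seen, none in a called result, and enzymes not followed singly can have reversed too. With median centring the plasmid effect was 0.17 for PGD and 0.13 for TALDO1 in ZR75-1, 0.016 for TALDO1 and 0.0398 for TKT averaged, and 0.0085 for PGD in the difference. With the actin covariate PGD gave 0.28 in ZR75-1, -0.13 in the SKBR3-labelled cells and 0.41 in the difference, and TKT gave -0.0267 in the SKBR3-labelled cells. With 1 array left out PGD ran from -0.106 to 0.0371 in ZR75-1, from -0.10 to 0.27 in the SKBR3-labelled cells, from -0.0671 to 0.12 averaged and from -0.308 to 0.0658 in the difference, TKT from -0.0916 to 0.224 in the SKBR3-labelled cells, and TALDO1 from -0.0426 to 0.231 in the difference. The number of arrays, 2 per group, limits what could be called. Signals of ALDOC near the floor have no firm order.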
